A study of Mus musculus with 13 samples.

Results

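The ERK feedback genes described here are 10 genes whose products switch off, or restrain, signalling by the kinase ERK or, for Dusp10, by the kinases p38 and JNK. They are the phosphatase genes Dusp1, Dusp2, Dusp4, Dusp5, Dusp6 and Dusp10, the Sprouty genes Spry1 and Spry2, and their relatives Spred1 and Spred2. They were chosen by symbol among the 56941 genes of a table of raw RNA-seq counts, and all 10 passed the filter on low counts that left 14681 genes for testing. The study asked what Chaf1b, a subunit of the chaperone that deposits histones on newly made DNA, does in Th17 cells, the T helper cells that secrete interleukin 17. The libraries called KO here came from Chaf1bfl/fl;Il17fCre+ mice, in which floxed Chaf1b alleles are recombined by a Cre driven by Il17f, and their controls, called WT, from Chaf1bWT mice. In both groups naive CD4+ T cells from spleen were activated and cultured for 72 hours under Th17-polarizing conditions, with 3 libraries per genotype. The genotype label of the controls does not say whether they carry the Cre, the sources used here give no strain or age, and a Cre driven by Il17f acts only in cells that have switched that gene on. The labels call the libraries biological replicates without stating separate animals, and the p-values below therefore speak of the spread among libraries, which may be technical. WT replicate 1 stood apart from the other WT libraries (chi-square of 18.8 and 33.1 per degree of freedom against them, and 7.54 between those), while pairs of KO libraries gave 4.19 to 4.53, and results that turn on it are given with and without it.

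ERK is switched on in T cells by the antigen receptor, through Ras, Raf and MEK, and it drives a fast wave of immediate early genes. Cells answer with brakes that the pathway itself induces. Dual-specificity phosphatases strip the activating phosphates from the threonine and the tyrosine of ERK, p38 or JNK, while Sprouty and Spred proteins act further up, at the level of Ras and Raf.

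Among the 10 genes, Spry2 and Dusp2 rose in KO, Dusp4 fell by a small amount, and 7 did not pass the test. Of the called genes Spry2 changed most, at 2.08 times its WT level (95% interval 1.82 to 2.38), followed by Dusp2 at 1.32 times (1.22 to 1.43) and Dusp4 at 0.87 times (0.81 to 0.94). Adjusted p-values here and below come from the quasi-likelihood test of edgeR, adjusted by the method of Benjamini and Hochberg over all tested genes, and genes below 0.05 were called. The test called 2 of the 10 higher, against 3.92% of all tested genes, and 1 of the 10 lower, against 2.47% (6.39% in either direction). An unadjusted p below 0.05 was found for 5 of the 10, against 21.1% of all tested genes. Without WT replicate 1 the log2 fold changes of the called genes were 1.05 for Spry2, 0.44 for Dusp2 and -0.15 for Dusp4, all still called. In CPM, each gene's count scaled by its library's total, KO and WT libraries did not overlap for 4 of the 10 genes, 2 of them higher (Spry2 and Dusp2) and 2 lower (Dusp4 and Spred2) in KO, against 26.8% of all tested genes in either direction, 14.4% higher and 12.4% lower. The median log2 fold change of the 10 was 0.04 and that of all tested genes -0.01, and the median of the absolute changes was 0.14 for the 10 and 0.13 for all. In bulk RNA, fewer cells of a type and less RNA per cell cannot be told apart.

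**Figure D1:**
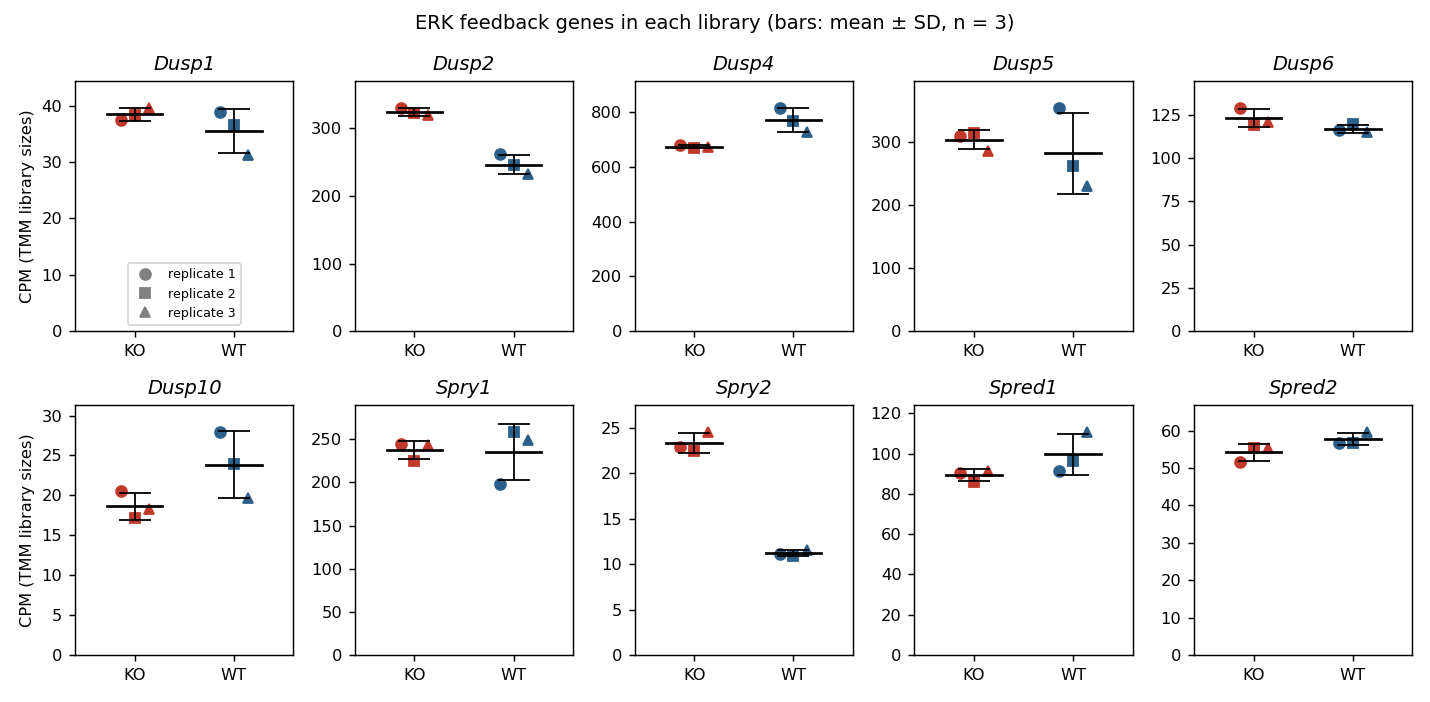
CPM of the 10 ERK feedback genes in each library (vertical axes from 0), with KO in red at the left, WT in blue at the right, marker shapes for replicate numbers and bars for mean ± SD over 3 libraries. Spry2 lies between 22.5 and 24.6 CPM in KO, against 10.9 to 11.6 CPM in WT, and the WT points of Dusp5 and Dusp10 are spread more widely than the KO points.

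Total counts were 35708879 to 38395131 in KO and 38099488 to 45232055 in WT. Chaf1b itself, the targeted gene, did not fall in the KO libraries, at 14.9 ± 1.38 CPM in KO and 12.0 ± 0.990 CPM in WT (SD, n = 3 each), a log2 fold change of 0.31 ± 0.11 (SE, adjusted p = 0.13). Without WT replicate 1 that difference passed, at 0.38 (adjusted p = 0.0138). Counts were summed over all exons and which exons are deleted is not given in the sources used here, so the value is no check of the labels. The Th17 cytokine genes Il17a and Il17f were detected in every library, but Il17a had 8.44 to 9.89 CPM in KO and 43.1 to 104 CPM in WT, and Il17f 5.33 to 6.45 CPM in KO and 25.8 to 64.9 CPM in WT, without overlap. The 7 CD4 T cell markers summed to 1648 to 1706 CPM in KO and 1699 to 2104 CPM in WT, with overlap and none called. Single markers did differ without overlap. Cd4 and Cd5 were lower in KO (log2 fold changes -0.36 and -0.25, adjusted p = 0.0504 and 0.0642). Cd3g was higher (0.30, adjusted p = 0.078), and the other 4 overlapped. Summed markers of other cell types were higher in KO without overlap for 6 gamma delta T cell genes (96 to 101 CPM in KO, 51 to 63 CPM in WT; all called but Sox13 and Blk, whose log2 fold changes were -0.38 and -1.85), 5 NK cell genes (19.8 to 24.9 CPM in KO, 11.4 to 14.6 CPM in WT; Klrk1 called higher, Klre1 at a log2 fold change of -1.44 and not called, Ncr1 and Klrb1c at 0), 7 B cell genes (96.9 to 103 CPM in KO, 68.3 to 81.6 CPM in WT; Cd79b and Ighm called higher, Ebf1 lower), 8 myeloid genes (6.27 to 7.89 CPM in KO, 2.44 to 2.84 CPM in WT; Fcer1g called, S100a8 and S100a9 at 0) and 7 dendritic cell genes (207 to 216 CPM in KO, 148 to 156 CPM in WT; H2-Aa and Cd74 called, Siglech at 0). The 2 CD8 T cell markers overlapped, at 12.4 to 16.6 CPM in KO and 14.1 to 16 CPM in WT. The part of these cell type differences in the results that follow was not tested, and a 0 allows up to 3 counts in a library.

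The promoters of 4 members are shown here to set the members that rose (Spry2 and Dusp2) beside 2 early response genes that did not pass the test, Dusp1 and Dusp5, in whose windows motifs of signal-responsive factors were found. Each window runs from 250 bases before to 50 bases after the gene's start in RefSeq (GRCm38.p6) and is written 5′ to 3′ along the gene's strand, with motif matches in capitals. Spry2 lies at chr14:105896770-105897069 (minus strand), Dusp2 at chr2:127335909-127336208 (plus strand), Dusp1 at chr17:26508423-26508722 (minus strand) and Dusp5 at chr19:53528895-53529194 (plus strand).
Spry2: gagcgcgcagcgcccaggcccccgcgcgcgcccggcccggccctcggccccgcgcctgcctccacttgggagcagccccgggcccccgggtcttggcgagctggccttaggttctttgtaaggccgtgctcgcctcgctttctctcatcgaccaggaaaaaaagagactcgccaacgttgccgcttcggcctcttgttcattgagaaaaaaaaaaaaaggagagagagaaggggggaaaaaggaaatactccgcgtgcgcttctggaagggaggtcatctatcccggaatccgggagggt
Dusp2: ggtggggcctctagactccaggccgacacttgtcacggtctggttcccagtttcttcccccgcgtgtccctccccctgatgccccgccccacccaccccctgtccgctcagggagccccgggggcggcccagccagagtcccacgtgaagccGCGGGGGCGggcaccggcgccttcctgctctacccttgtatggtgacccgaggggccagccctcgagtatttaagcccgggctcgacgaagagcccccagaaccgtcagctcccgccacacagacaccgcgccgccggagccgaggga
Dusp1: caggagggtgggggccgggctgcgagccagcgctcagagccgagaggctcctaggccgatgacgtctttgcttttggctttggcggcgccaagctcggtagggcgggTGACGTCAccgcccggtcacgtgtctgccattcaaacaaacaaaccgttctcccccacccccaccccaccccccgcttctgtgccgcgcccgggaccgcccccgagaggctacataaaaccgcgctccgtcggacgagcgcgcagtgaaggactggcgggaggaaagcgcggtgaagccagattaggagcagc
Dusp5: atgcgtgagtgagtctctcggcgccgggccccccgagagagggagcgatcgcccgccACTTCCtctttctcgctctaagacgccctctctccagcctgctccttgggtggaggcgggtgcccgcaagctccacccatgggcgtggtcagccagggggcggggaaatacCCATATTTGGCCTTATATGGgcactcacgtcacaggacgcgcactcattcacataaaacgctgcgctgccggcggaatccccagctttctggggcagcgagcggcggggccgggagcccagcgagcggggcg
Windows of 9 members were searched on both strands, all but Dusp4, for TGACGTCA (cyclic AMP response element), TGANTCA (AP-1), GCGNGGGCG (Egr), GGAAGT (Ets) and the CArG box of serum response factor, and the same search was run over all 32851 windows of the table. The cyclic AMP response element was found in 1 of the 9, Dusp1, with its first base at -143 from the start, against 1.79% of all windows. The Egr motif was found in 1 of the 9, Dusp2 at -98, against 5.55% of all windows. The Dusp2 window is 70.7% G and C, against a median of 52.7% over all windows, and the shares given here were not matched for this. The CArG box was found in 1 of the 9, Dusp5, where matches at -82 and -72 stand side by side, against 1.63% of all windows. The Ets motif was found in 2 of the 9, Dusp5 at -193 and Spred2 at -33, against 23.8% of all windows, and AP-1 in 0 of the 9, against 7.81%. No searched motif was found in the windows of Spry2, Dusp6, Dusp10, Spry1 or Spred1. A match describes these letters only.

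Dusp1, Dusp2, Dusp4 and Dusp5 encode nuclear phosphatases that activated cells induce as early response genes. Dusp2, a phosphatase of activated lymphocytes, had 329.9, 322 and 319.7 CPM in KO, against 261, 245 and 232 CPM in WT. Every KO library was above every WT library. The mean was 324 ± 5.29 CPM in KO and 246 ± 14.6 CPM in WT (SD, n = 3 each), a log2 fold change of 0.40 ± 0.05 (SE, 95% interval 0.29 to 0.51) with an adjusted p of 0.00113. Dusp4, which acts on ERK and JNK in the nucleus, went the other way, with 679, 668 and 673 CPM in KO, against 816, 768 and 729 CPM in WT. The 3 KO libraries lay close together and below all WT libraries. Its log2 fold change was -0.19 ± 0.05 (95% interval -0.30 to -0.09, adjusted p = 0.0316). It no longer passed without KO replicate 1 (adjusted p = 0.129), KO replicate 2 (0.146), KO replicate 3 (0.134) or WT replicate 2 (0.122), with log2 fold changes of -0.20 to -0.19.

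The ratio of Dusp2 to Dusp4 within a library was 0.486, 0.482 and 0.475 in KO, against 0.32, 0.319 and 0.318 in WT. It did not overlap between groups, and its coefficient of variation (CV) was 1.11% in KO and 0.292% in WT. The CV of Dusp2 alone was 1.63% in KO and 5.94% in WT, and that of Dusp4 alone 0.824% in KO and 5.65% in WT. Within WT the ratio varied less than either gene, but within KO it varied more than Dusp4. Counting noise alone would give a CV of 0.951% for Dusp2 and 0.594% for Dusp4. The WT value of the ratio, from 3 libraries, lies below both, so it is no measure of how closely the genes move together. The mean log2 ratio was 0.59 higher in KO, and the two-sided exact permutation test gave p = 0.1, the smallest that 3 against 3 libraries allow. It is 1 of 6 ratios computed, each chosen after the genes' values were seen. In each of the 6 the numerator was a called gene whose own groups did not overlap, so a ratio without overlap was likely beforehand. Each of the 6 was without overlap, with an adjusted p of 0.1 in that test, which is no separate support. These are ratios of CPM and not of levels per length.

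Dusp1, which acts on p38, JNK and ERK, had 37.4, 38.3 and 39.6 CPM in KO, against 38.8, 36.6 and 31.2 CPM in WT. The groups overlapped, and the log2 fold change of 0.11 ± 0.08 (95% interval -0.07 to 0.30) did not pass (adjusted p = 0.495). Dusp5, a nuclear phosphatase specific to ERK, had 311, 315 and 287 CPM in KO, against 355, 263 and 230 CPM in WT. The highest library was WT replicate 1 and the lowest were the other WT libraries, so that all KO libraries lay inside the WT range. Its log2 fold change was 0.11 ± 0.15 (95% interval -0.24 to 0.45, adjusted p = 0.748), and its CV was 4.89% in KO and 22.9% in WT. Without WT replicate 1 the change was 0.30 (adjusted p = 1.87e-04), and without WT replicate 3 it was -0.02.

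Dusp6 and Dusp10 encode the cytoplasmic phosphatase for ERK and a phosphatase for p38 and JNK. Dusp6, which is widely used as a readout of ERK activity, had 129, 119 and 121 CPM in KO, against 116, 119.7 and 115 CPM in WT. KO replicate 2 lay just below WT replicate 2, so the groups overlapped, and the log2 fold change of 0.07 ± 0.05 did not pass (adjusted p = 0.463). Its 95% interval, a fold of 0.97 to 1.14, holds no change as large as the fitted one of Dusp2. Dusp6 overlaps the predicted gene Gm34921, from which reads cannot be told apart without strand. Dusp10 had 20.5, 17.1 and 18.3 CPM in KO, against 28, 23.9 and 19.7 CPM in WT. Its groups overlapped, KO replicate 1 being above WT replicate 3, and the log2 fold change was -0.36 ± 0.13 (95% interval -0.63 to -0.08, adjusted p = 0.128). Without WT replicate 3 it was -0.48 and passed (adjusted p = 0.0183), and without WT replicate 1 it was -0.22.

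The Sprouty genes encode inhibitors that growth factor and antigen receptor signals induce. Spry2 had 803, 860 and 906 counts in KO, against 457, 418 and 527 counts in WT, or 22.9, 22.5 and 24.6 CPM in KO and 11.1, 10.9 and 11.6 CPM in WT. The groups were far apart and each was tight. The mean was 23.3 ± 1.11 CPM in KO and 11.2 ± 0.346 CPM in WT (SD, n = 3 each), with a log2 fold change of 1.06 ± 0.09 (95% interval 0.87 to 1.25) and an adjusted p of 4.69e-05. Spry1 had 244, 225 and 243 CPM in KO, against 198, 259 and 249 CPM in WT. WT replicate 1 was its lowest library, the groups overlapped, and the log2 fold change was 0.01 ± 0.09 (95% interval -0.19 to 0.21, adjusted p = 0.959). Without WT replicate 1 the change was -0.10 (adjusted p = 0.104). The ratio of Spry2 to Spry1 within a library was 0.0939, 0.1 and 0.101 in KO, against 0.0563, 0.042 and 0.0466 in WT, a mean log2 difference of 1.04. The groups did not overlap in this ratio (two-sided exact permutation p = 0.1, the smallest possible).

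Spred1 and Spred2 encode membrane proteins that bring the Ras inhibitor neurofibromin to Ras. Spred1 had 90.2, 86.1 and 91.6 CPM in KO, against 91.4, 96.5 and 111 CPM in WT. KO replicate 3 lay just above WT replicate 1, and the log2 fold change of -0.16 ± 0.07 did not pass (adjusted p = 0.227). Without WT replicate 1 it was -0.22 and passed (adjusted p = 0.00346). Spred2 had 51.6, 55.5 and 55.5 CPM in KO, against 56.8, 56.8 and 59.8 CPM in WT. All KO libraries were below all WT libraries by a small margin, with a log2 fold change of -0.09 ± 0.06 (95% interval -0.22 to 0.04, adjusted p = 0.42).

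**Figure D2:**
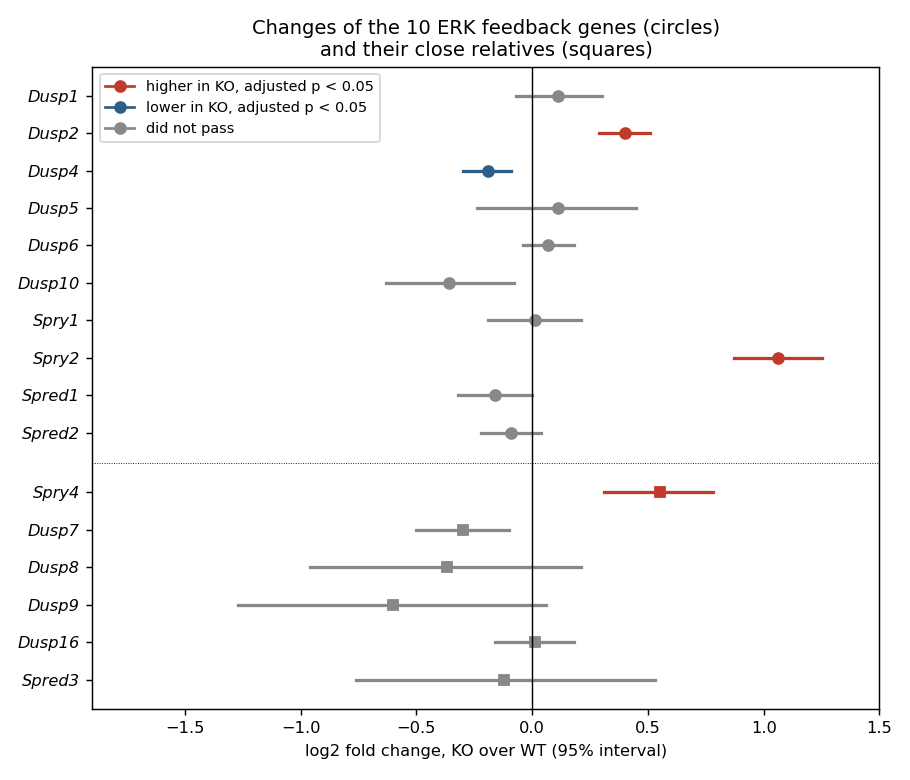
Log2 fold changes, KO over WT, with 95% intervals for the 10 ERK feedback genes (circles) and 6 close relatives (squares), coloured by whether the adjusted p was below 0.05. Of the called genes, Spry2, Dusp2 and Spry4 lie right of 0 and Dusp4 left of it. The intervals of Dusp10 and Dusp7, which did not pass, also lie left of 0, while the interval of Dusp6 lies close to 0.

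Of the 7 close relatives of these genes, 6 were tested, 1 rose (against 3.92% of all tested genes) and 0 fell (against 2.47%). The rise was that of Spry4, another Sprouty inhibitor, with 17.3, 15.1 and 17.9 CPM in KO, against 10.8, 11.1 and 12.6 CPM in WT. The groups did not overlap, and the log2 fold change was 0.55 ± 0.11 (fold 1.46, 95% interval 1.24 to 1.72, adjusted p = 0.0123). Spry4 no longer passed without KO replicate 1 (adjusted p = 0.0906), KO replicate 3 (0.0885) or WT replicate 2 (0.073). The ratio of Spry2 to Spry4 was 1.32, 1.49 and 1.37 in KO, against 1.03, 0.984 and 0.92 in WT, without overlap (two-sided exact permutation p = 0.1, the smallest possible). Dusp7, a cytoplasmic ERK phosphatase like Dusp6, had 24.9 ± 0.791 CPM in KO and 30.7 ± 3.49 CPM in WT, and its log2 fold change of -0.30 ± 0.09 did not pass (adjusted p = 0.0789). Its groups did not overlap, and it passed without WT replicate 3 (adjusted p = 0.0181). The remaining 4 did not pass, with log2 fold changes of -0.37 ± 0.27 for Dusp8, -0.60 ± 0.30 for Dusp9, 0.01 ± 0.08 for Dusp16 and -0.12 ± 0.29 for Spred3 (adjusted p from 0.285 to 0.963), and without WT replicate 1 the values of Dusp16 and Spred3 were -0.04 and 0.18.

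Further phosphatases gave 1 rise and 1 fall among 9 tested of 10 atypical dual-specificity genes, small enzymes most of which lack the domain that binds the kinases. Over all tested genes, 3.92% rose and 2.47% fell. Without WT replicate 1 the list had 1 rise and 2 falls (19.7% of all tested genes called there). The median log2 fold change of the list was -0.03. Dusp14, known to restrain antigen receptor signalling in T cells, fell, with 41.3 ± 2.82 CPM in KO and 52.5 ± 0.817 CPM in WT and a log2 fold change of -0.35 ± 0.07 (adjusted p = 0.0113). Its call was lost without KO replicate 1 (0.063), KO replicate 3 (0.0725) or WT replicate 2 (0.0652). Dusp18 was low, at 4.40 CPM in KO and 2.17 CPM in WT, with a log2 fold change of 1.02 ± 0.22 (adjusted p = 0.0187), lost without any KO library (0.0742 to 0.105) or without WT replicate 2 (0.0822). It overlaps 4921536K21Rik, from which reads cannot be told apart without strand.

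All 24 genes of the cascade from the receptor through Ras to ERK were tested. Of these, 2 rose, against 3.92% of all tested genes, and 0 fell, against 2.47%. Their median log2 fold change was 0.01. Without WT replicate 1, 6 of the cascade rose and 1 fell, where calls over all tested genes went up to 19.7%. Rasgrp2, an exchange factor that acts mainly on Rap, had 3.61 ± 0.141 CPM in KO and 1.20 ± 0.493 CPM in WT, a log2 fold change of 1.58 ± 0.28 (adjusted p = 0.00648), and overlaps Gm14965. Map2k1, which encodes the kinase MEK that phosphorylates ERK, had 109 ± 2.87 CPM in KO and 94.3 ± 1.07 CPM in WT. Its log2 fold change was 0.21 ± 0.05 (adjusted p = 0.0311), and it no longer passed without KO replicate 1 (0.155), 2 (0.181) or 3 (0.0965) or without WT replicate 2 (0.121), or with the replicate number as a block (0.0694). Map2k1 overlaps Uchl4.

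Among 19 other brakes on Ras and ERK, 18 were tested and none was called by edgeR in either direction, with a median log2 fold change of -0.01. Of these, 3 had an unadjusted p below 0.05, against 21.1% of all tested genes. DESeq2 called 1 higher, beside 756 higher over all genes, and limma-voom called none. With quality weights, limma-voom called 4 higher and 2 lower, beside 1729 higher and 1548 lower over all genes. Without WT replicate 1, edgeR called 4 higher and 2 lower, beside 19.7% of all tested genes. The brakes with the highest CPM were Ptpn7, a phosphatase for ERK in blood cells, with a log2 fold change of 0.10 ± 0.05 (adjusted p = 0.23), and Pebp1, an inhibitor of Raf, at 0.03 ± 0.05 (adjusted p = 0.786). In the p38 and JNK cascades 18 of 19 were tested, with a median of -0.04. Without WT replicate 1, 2 rose and 2 fell, beside 19.7% of all tested genes. With all libraries, 1 rose (against 3.92% of all tested genes) and 0 fell (against 2.47%). The rise was Gadd45g, which activates a kinase upstream of p38, with 6.21 CPM in KO and 3.63 CPM in WT and a log2 fold change of 0.77 ± 0.19 (adjusted p = 0.0333). The call was lost without any KO library (0.125 to 0.141), WT replicate 2 (0.142) or WT replicate 3 (0.0618).

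ERK output genes, a list of targets of the pathway, had a median log2 fold change of 0.10. Without WT replicate 1, 11 were called higher and 5 lower, where 19.7% of all tested genes were called. With all libraries, 6 were higher and 1 lower among 24 tested of 25, against 3.92% and 2.47% of all tested genes. Of the called genes Egr3 changed most, with 31.8 ± 1.37 CPM in KO and 14.1 ± 3.10 CPM in WT (log2 fold change 1.18 ± 0.13, adjusted p = 5.54e-04). Egr1 and Fosb, encoding early transcription factors, had log2 fold changes of 1.02 ± 0.06 and 0.95 ± 0.10, and Epha2, a receptor tyrosine kinase, 1.01 ± 0.11 (adjusted p from 3.06e-06 to 3.77e-04). Plk3 and Fos made up the other rises and Myc was the fall, and these were named after their values were seen. Fos and Myc lost their call without KO replicate 1, 2 or 3 or without WT replicate 2 or 3, with an adjusted p of 0.0749 to 0.16 for Fos and 0.0829 to 0.21 for Myc. Fos also missed the threshold with upper-quartile factors (adjusted p = 0.0531), and Myc with median-ratio factors (0.051) and with limma-voom (0.0595). Whether the members and the output genes differed as groups was not tested.

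**Figure D3:**
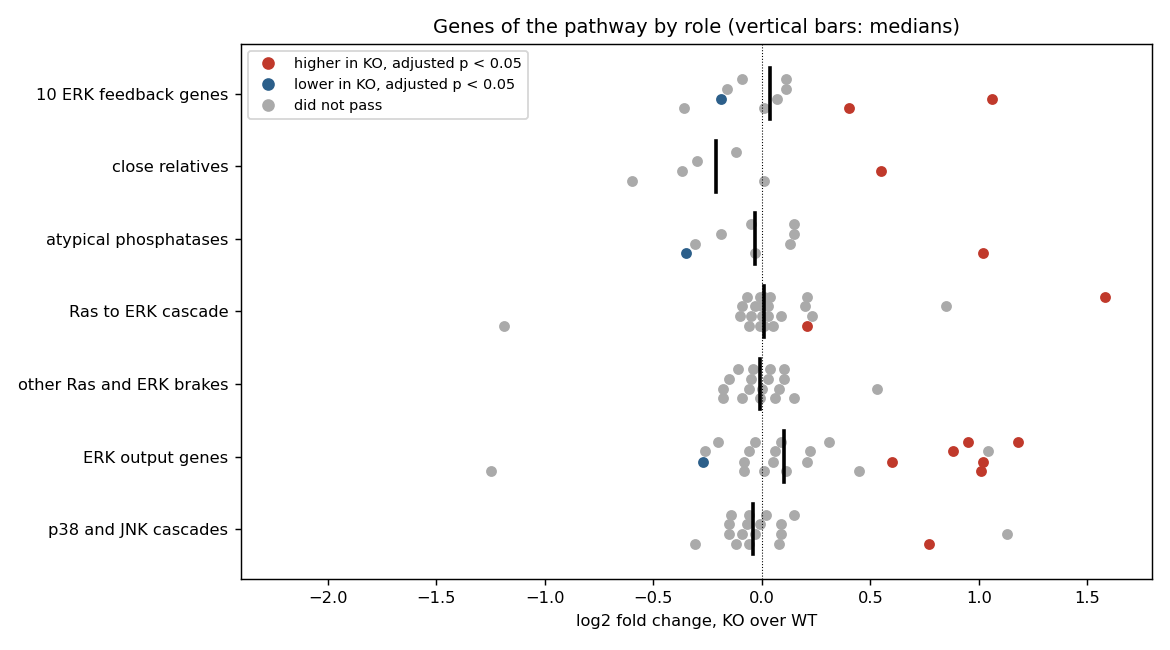
Log2 fold changes, KO over WT, of the tested genes of 7 lists, one point a gene (red higher and blue lower at an adjusted p below 0.05, grey not passing), with list medians as black bars. The ERK output genes hold 6 red points, and the cascade and the other brakes lie mostly close to 0.

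The libraries of the WT group differed more among themselves than those of the KO group. The CV was larger in WT for 7 of the 10 members, a share of 70% against 74.1% of 8612 tested genes with a mean of at least 10 CPM. The median CV of the members was 4.11% in KO and 8.09% in WT, against 3.65% in KO and 6.57% in WT for those 8612 genes. WT replicate 1 was the highest WT library for 5 of the 6 phosphatases and for none of the 4 Sprouty and Spred genes. WT replicate 3 was the lowest WT library for all 6 phosphatases. The same counts over all tested genes were not computed. Relative to the mean of the other WT libraries, WT replicate 1 was 44% higher for Dusp5, 28.5% for Dusp10, 14.5% for Dusp1, 9.53% for Dusp2 and 9.05% for Dusp4. For Spry1 it was -22.1% and for Spred1 -11.9%. The gap was small for Spred2 (-2.63%), Dusp6 (-1.08%) and Spry2 (-0.858%), so the rank of WT replicate 1 says little for these genes. Leaving WT replicate 1 out raised the number of called genes to 2961 of 15039 tested (19.7%), with 3 members called higher (Spry2, Dusp2 and Dusp5) and 2 called lower (Dusp4 and Spred1).

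**Figure D4:**
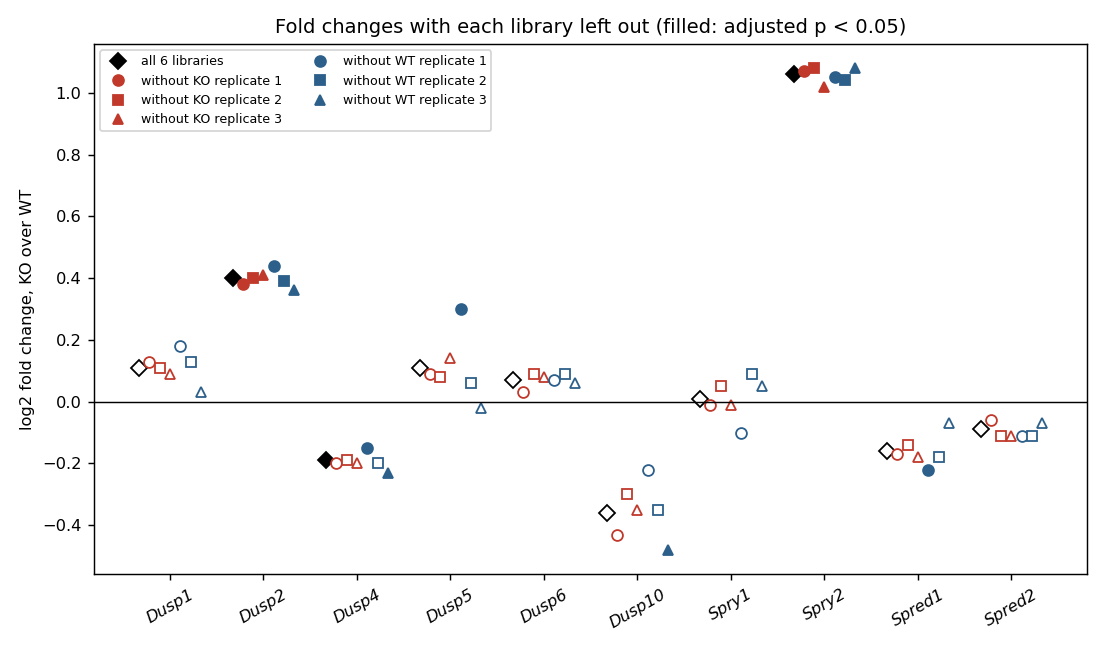
Log2 fold changes, KO over WT, of each ERK feedback gene when each of the 6 libraries is left out in turn, beside the value from all libraries (filled symbols, adjusted p below 0.05). Spry2 stays between 1.02 and 1.08 and Dusp2 between 0.36 and 0.44, while Dusp5 ranges from -0.02 to 0.30.

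The genes whose profile over the 6 libraries was most like that of Spry2, by Euclidean distance of centred log2 CPM among 9184 genes with a mean of at least 5 CPM, were Tcrg-C2 (distance 0.09), Enah (0.15), Tcrg-C4 (0.20), Lta (0.21) and Il23a (0.21). Tcrg-C2 and Tcrg-C4 encode constant regions of the gamma chain of the T cell receptor and belong to the gamma delta T cell markers given above, Enah encodes a regulator of actin, and Lta and Il23a encode cytokine subunits. Their log2 fold changes ran from 1.00 to 1.05. For Dusp4 the nearest were Rnpepl1 (0.03), Stat5b (0.04), Trbv1 (0.05), Rxrb (0.06) and H2-T23 (0.06), with log2 fold changes of -0.20 to -0.17. Of these, Stat5b passed the test (adjusted p = 0.0479). The distance describes 6 libraries and measures likeness of change, so that any gene of like size and spread lies near.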

How the data were processed

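RNA-seq counts of 3 KO and 3 WT Th17 libraries were used; the other 7 of 13 samples (other assays) were not analysed here. Raw counts were made by the authors with featureCounts 2.0.1, summing exons by gene (GENCODE vM33), per the file headers. The aligner version is not given in the sources used here, nor is the genome build. One deposited column, WT replicate 2, is entered under the unit other for a technical reason and holds raw counts like the rest. The header lacks the option names of the KO replicate 1 command, and the others set no strand or paired-end option. Of counts from 1 to 20, 65.63% to 67.74% were even, so mates may be counted separately and precision per count may be overstated. Symbols matched 51948 of 56941 gene IDs (91.2%).

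Counts were tested with edgeR 4.0.16 (R 4.3.3): default low-count filter, TMM, robust quasi-likelihood F-test, genotype only, Benjamini-Hochberg over 14681 genes, threshold 0.05, BCV 9.28%. CPM uses TMM library sizes; SE is the size of the log2 fold change divided by the root of its F. Within groups, libraries differed by more than sampling noise, a difference that mates counted separately would also raise. All 6 were kept, WT replicate 1 included, and that difference is no check of their quality. The fit was tested on simulated data. The table has no gene lengths, so levels were not compared between genes. Alternatives were other normalizations and filters, DESeq2 1.42.0, limma-voom (limma 3.58.1) with and without quality weights, a replicate block, and leaving out each library.

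Members and lists were chosen with earlier results of these data known. Named genes were Chaf1b, all members, their relatives, the 4 most changed called genes of each other list (or the 2 with the highest CPM where none was called) and the 5 genes nearest to Spry2 and Dusp4; exceptions are stated. Spry3 was not analysed here, and some marker results are not reported here. Promoters were matched by symbol for 9 of 10 members from RefSeq windows of GRCm38.p6, which were searched for 5 motifs.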

Additional observations from a re-analysis of the deposited data

How the results depend on the processing

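Spry2 and Dusp2 passed in all 14 alternatives, with log2 fold changes of 1.02 to 1.08 and 0.36 to 0.44 and adjusted p-values up to 0.00148 and 0.0195, and Dusp4 in 9 of 14, at -0.23 to -0.15. Replicate numbers did not pair the libraries (correlations of same-numbered deviations -0.04 to 0.001). With the replicate block, 231 genes were called lower, Dusp4 had an adjusted p of 0.0599, so 0 members were lower, and the cascade and the other brakes had 1 higher each. Over all genes, leaving out 1 library gave 225 to 1589 higher and 70 to 1372 lower; quality weights gave 1729 higher and 1548 lower; no filter gave 746 lower and DESeq2 569 lower. Without a filter and with quality weights alike, 2 members were lower. Leaving out a library gave 2 to 3 members higher and 0 to 2 lower. The relatives had 1 lower with no filter, 1 with DESeq2 and 2 with quality weights, and 0 to 1 in each direction without a library. The atypical phosphatases had 2 lower with no filter and with quality weights, and 0 to 1 higher and 0 to 2 lower without a library. The cascade had 4 higher and 1 lower with no filter and with DESeq2, 5 higher and 1 lower with quality weights, and 1 to 6 higher and 0 to 1 lower without a library. The other brakes had 1 higher with no filter and with DESeq2, 4 higher and 2 lower with quality weights, and 0 to 4 higher and 0 to 2 lower without a library. The output genes had 11 higher and 5 lower with quality weights, 3 lower with no filter and with DESeq2, 0 lower with median-ratio factors and with limma-voom, and 5 to 11 higher and 0 to 5 lower without a library. The p38 and JNK cascades had 1 lower with no filter and with DESeq2, 2 higher and 3 lower with quality weights, and 0 to 2 in each direction without a library. The sign turned for Dusp5 without a library (-0.02 to 0.30), Spry1 (-0.09 with quality weights, -0.10 to 0.09 without a library), Dusp16 (-0.05 with quality weights, -0.05 to 0.06 without a library) and Spred3 (0.30 with quality weights, -0.35 to 0.18 without a library). Dusp10 passed with no filter (adjusted p = 0.00858) and with quality weights (0.0141), Dusp5 with quality weights (0.0206). The cause of these shifts was not tested.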
